A study of Mus musculus with 2 samples.

Results

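The iron, copper and metallothionein genes followed here are 10 genes of metal handling, measured in the airway epithelium of the fetal mouse lung. They encode the iron carrier transferrin (Trf), its receptor (Tfrc), the importer Slc11a2, the ferritin chains Fth1 and Ftl1, the exporter Slc40a1, the copper oxidase ceruloplasmin (Cp), heme oxygenase 1 (Hmox1) and the metallothioneins Mt1 and Mt2. They were found by name on the array as 10 genes with 13 probes, of 17243 named genes with a ratio and 41170 probes in all. Trf and Cp were picked by their large ratios on this array, so the ratios of the set describe it and carry no test. The 2 samples were intralobular airway epithelium of wild-type male CD-1 fetuses, 1 at E18.5 and 1 at E14.5, in days of embryonic development. Per the labels, the epithelium of 1 whole lung was cut from frozen sections by laser at each age. CD-1 is an outbred stock, neither group had a treatment, and both were hybridised together on 1 array, E18.5 in red and E14.5 in green. All ratios below are log2 of E18.5 over E14.5, between these 2 samples.

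Iron travels in plasma bound to transferrin, is taken up through the transferrin receptor, leaves the endosome through Slc11a2 (DMT1), is stored inside ferritin shells made of heavy and light chains, and leaves the cell through Slc40a1 (ferroportin). Ceruloplasmin carries copper and oxidises ferrous iron so that transferrin can bind it. Metallothioneins are small cysteine-rich proteins that bind zinc and copper, and their genes are switched on by metals through the factor MTF1 and by glucocorticoids. In the lung, transferrin, ceruloplasmin and ferritin are known as part of the antioxidant defence of the airway lining.

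The probes of Trf, Cp and Mt1 are shown because these genes had some of the largest ratios and each probe has a reading frame free of stop codons. All are given 5′ to 3′ on the strand of the transcript, at positions on mm8. The Trf probe lies on the minus strand within chr9:103073389-103074004, a span of 616 bases for 60 bases of probe. The Cp probe lies at chr3:20181226-20181285 and the brighter Mt1 probe at chr8:97069240-97069299, both on the plus strand. Capitals in the Mt1 probe mark 6 cysteine codons in 1 of its reading frames, for the residues with which a metallothionein holds metal.
Trf: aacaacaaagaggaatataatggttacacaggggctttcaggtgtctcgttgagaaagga
Cp: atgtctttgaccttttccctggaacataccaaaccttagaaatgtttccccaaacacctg
Mt1: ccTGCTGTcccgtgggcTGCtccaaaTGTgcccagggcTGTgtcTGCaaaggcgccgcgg

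The stretches before the starts of Mt2 and Mt1 are shown because these neighbouring genes were both much higher at E18.5. They are the 250 bases upstream of the start in RefSeq (GRCm38.p6, plus strand), at chr8:94172368-94172617 for Mt2 and chr8:94178839-94179088 for Mt1. Capitals mark matches on either strand to TGCNCNC, the core of the metal response element that MTF1 binds.
Mt2: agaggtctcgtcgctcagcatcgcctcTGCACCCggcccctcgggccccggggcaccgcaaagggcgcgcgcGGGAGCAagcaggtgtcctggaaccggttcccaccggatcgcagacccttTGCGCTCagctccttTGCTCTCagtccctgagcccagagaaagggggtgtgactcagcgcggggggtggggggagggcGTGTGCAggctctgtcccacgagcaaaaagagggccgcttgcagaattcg
Mt1: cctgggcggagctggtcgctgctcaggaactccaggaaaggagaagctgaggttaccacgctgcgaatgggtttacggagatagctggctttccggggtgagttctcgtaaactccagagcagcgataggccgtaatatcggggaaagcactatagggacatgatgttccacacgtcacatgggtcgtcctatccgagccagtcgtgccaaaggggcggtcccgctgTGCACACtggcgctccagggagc

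With the 50 bases after the start included, the Mt2 window held 6 matches and the Mt1 window 3. Of 32851 RefSeq windows of that length, 0.225% held at least 6 matches and 7.10% at least 3. The start used for Mt1 lies 206 bases inside the gene record, and whether it is the start of the main transcript was not tested. Of the other members with a window, Tfrc had 3 matches in the first and 1 in the other of its windows. These windows of Tfrc overlap, and the match in the other is also among the 3 of the first. Cp had 2 matches in the first and 0 in the other of its windows, and Fth1 and Ftl1 had 0. Overlapping matches were counted separately. A match is a run of letters and was not tested as a binding site.

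Depth on this array is signal over background, and 78.7% of probes were well above background at E18.5 and 75.2% at E14.5. All 13 probes of the set were well above background at both ages, and 0 probes of the array were saturated. Repeated spots of a probe had a median SD of 0.05 in the log2 ratio, and different probes of a gene a median SD of 0.33. With 1 sample per age, 1 array and no dye swap, no p-value can be given, differences between lungs were not measured, and age and dye cannot be told apart.

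Transferrin, ceruloplasmin, both metallothioneins, the ferritin heavy chain and the importer were higher at E18.5, while the ferritin light chain, the receptor, the exporter and heme oxygenase stayed within 2-fold. Higher by 2-fold or more were 6 of the 10 (Trf, Cp, Mt2, Mt1, Fth1 and Slc11a2), beside 17.3% of all genes, and lower by as much were 0 of the 10, beside 10.1%. In either direction that makes 6 of 10, beside 27.4% of all genes. The scanner software's ratio adds Tfrc to the lower side. An 8-fold excess at E18.5 was reached by 4 (Trf, Cp, Mt2 and Mt1), beside 3.17% of all genes. The median log2 ratio was 2.44 over the set and 0.06 over all genes. Since large ratios chose part of the set, nothing is read from these counts.

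**Figure D1:**
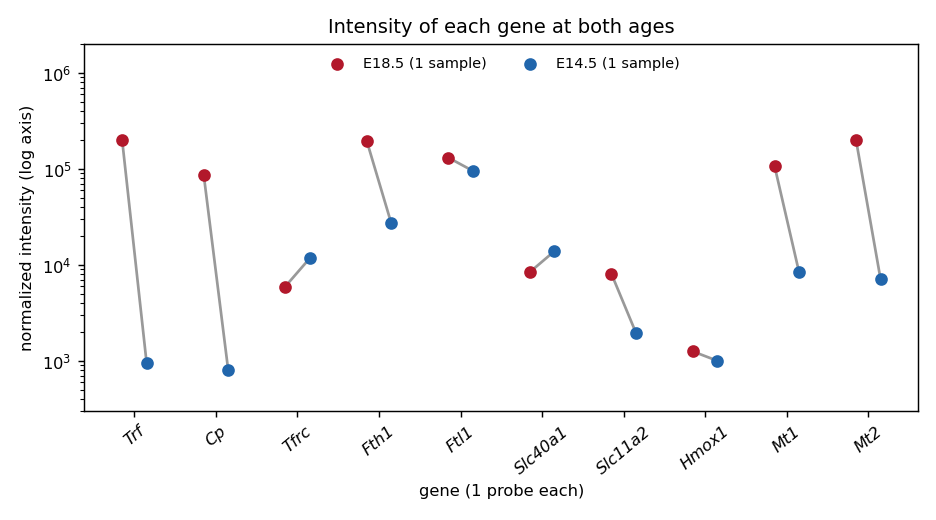
Normalized intensity (log axis) of the 10 genes, 1 probe and 1 sample per point, E18.5 in red at left and E14.5 in blue at right for each gene. Brightness can be compared within a gene only: Trf stood at 198831 and 948, and Tfrc at 5948 and 11710.0.

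Transferrin binds ferric iron in plasma and in epithelial secretions. Its probe had a normalized intensity of 198831 at E18.5, against 948 at E14.5. The log2 ratio was 7.71, the rank was 5 from the top among all genes, and under the other ways of processing the ratio lay between 7.68 and 7.85. At E14.5 the spot read 908 before background correction, over a local background of 44.0, so the lower value was measured and not a floor. Among the 1105 probes within 0.25 of its average log2 intensity the median ratio was −0.03.

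Ceruloplasmin, the copper-bound ferroxidase, was picked for its large ratio, as was Trf, so their likeness follows from that choice. Its probe had an intensity of 86772 at E18.5, against 806 at E14.5. That gave a log2 ratio of 6.75 and rank 14 from the top, with a range of 6.70 to 6.83 over the ways of processing. The ratio of hephaestin (Heph), the membrane-bound copper ferroxidase related to ceruloplasmin, ran the other way: 1564 at E18.5, against 3272 at E14.5, a log2 ratio of −1.07 with its other probe at −0.80. The log2 ratios of Cp and Heph differed by 7.82, and by at least 7.68 under every way of processing tried. Because Cp was picked for its ratio, a wide gap to another gene is given as description only.

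Trf and Cp are made in quantity by the liver, and so is haptoglobin (Hp), given below, which was also far higher at E18.5. A list of hepatocyte genes was near background at both ages. Of its 8 genes, 5 (Ttr, Apoa1, Apoa2, Ahsg and Fga) were not well above background at either age. Albumin (Alb) read 177 at E18.5, against 143 at E14.5, alpha-fetoprotein (Afp) 142 against 270.2, and Fgb 125 against 117. Outside that list, Tmprss6, a protease of liver given below, read 1958 at E18.5, against 168 at E14.5. Which cells gave the Trf, Cp and Hp signal was not tested.

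The transferrin receptor takes up iron-laden transferrin and is known for high levels in dividing and hemoglobin-making cells. It was the lowest of the set by ratio, with an intensity of 5948 at E18.5, against 11710.0 at E14.5, which is 1.97-fold lower at E18.5. Its probe at chr16:32551916-32551975 was printed at 10 places, of which 8 spots were kept. Over these spots the intensity ran from 5810 to 6071 with a median of 5944 at E18.5, against 11335 to 11992 with a median of 11729 at E14.5, and the ranges do not overlap. The log2 ratio had a mean of −0.98 ± 0.02 (SD over 8 spots of 1 array), and 1 spot of the 8 was past 2-fold. The spots repeat the same labelled RNA and say nothing of other lungs. The scanner software's ratio was −1.16, past 2-fold. Of all genes, 10.5% had a lower ratio than Tfrc.

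Slc11a2 pumps ferrous iron out of the endosome and is spliced to several forms with different ends. Its 3 probes all read higher at E18.5 by unequal amounts. The probe nearest the 3′ end of the minus-strand gene, at chr15:100215936-100215995, had 8067 at E18.5, against 1965 at E14.5, a 4.11-fold difference. The middle probe, at chr15:100220950-100221009, had 5529 at E18.5, against 2521 at E14.5, a 2.19-fold difference. The most upstream probe, at chr15:100238119-100238178, was dim, with 254 at E18.5, against 188 at E14.5, a 1.35-fold difference. Their log2 ratios were 2.04, 1.13 and 0.43, farther apart than the usual spread between probes of a gene. With the median over the probes, Slc11a2 stood at 1.13, still past 2-fold. Which transcript forms each probe reads was not tested.

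**Figure D2:**
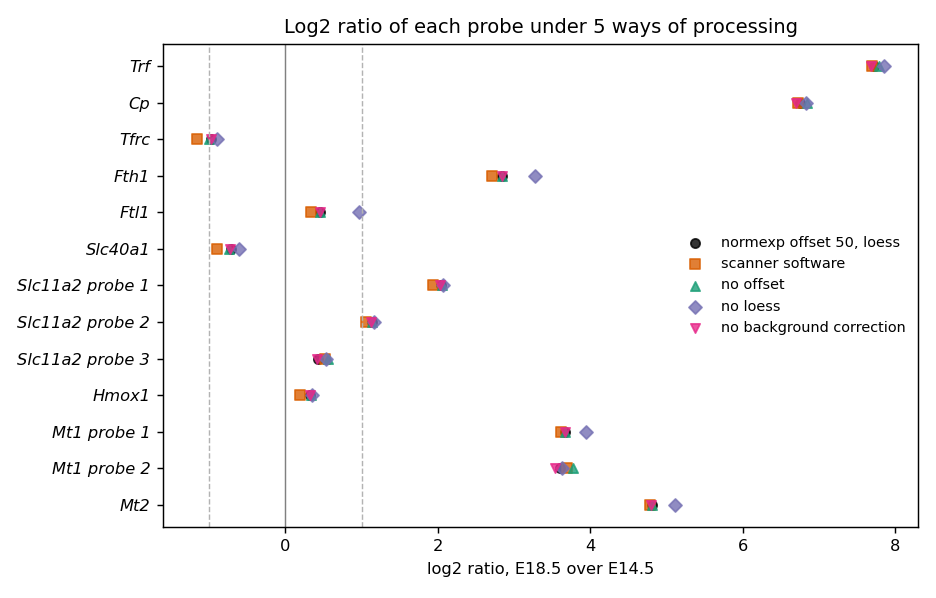
Log2 ratio, E18.5 over E14.5, of all 13 probes under 5 ways of processing, 1 marker per way, with dashed lines at 2-fold. Ways of processing lie close together for most probes; without loess Fth1 moves to 3.27 and Ftl1 to 0.96, and the scanner software puts Tfrc at −1.16.

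The ferritin chains parted. The heavy chain Fth1, which carries the ferroxidase site of the shell, had an intensity of 194880.4 at E18.5, against 27121 at E14.5, a 7.19-fold difference. The light chain Ftl1, which helps to form the iron core, had 130990.2 at E18.5, against 95375 at E14.5, a 1.37-fold difference. Fth1 was thus much higher at E18.5 and Ftl1 within 2-fold. The log2 ratios of 2.85 and 0.46 differed by 2.39, and by 2.31 to 2.39 over the ways of processing, although both moved upward without loess.

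The light chain was near the middle of its brightness class. The 130 probes within 0.25 of its average log2 intensity had a median ratio of 0.28, above 0 even after loess, and 56.9% of them lay lower. For Fth1 the 228 probes of like brightness had a median of −0.01, and 99.1% lay lower. A probe that the files name Ftl2, a near copy of the light chain, read 122068 at E18.5, against 96732 at E14.5, a log2 ratio of 0.34, close to that of Ftl1. Ferritin probes of 60 bases may bind processed copies of these genes as well, which was not tested.

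Slc40a1 is the only known iron exporter of mammalian cells and is abundant in macrophages that recycle red cells. It had an intensity of 8417 at E18.5, against 13875 at E14.5, by a probe at chr1:45852956-45853015. The log2 ratio of −0.72 (1.65-fold lower at E18.5) was within 2-fold and lay between −0.90 and −0.61 over the ways of processing. In the same material, 6 of 10 macrophage and leukocyte genes passed 2-fold upward and 0 downward, beside 17.3% and 10.1% of all genes. The summed intensities of that list were 17834 at E18.5, against 4441 at E14.5. In it, Ptprc was at 3.21 (other probe 0.53), Csf1r at 1.72 (others 1.05 and −0.02) and Fcgr3 at 2.51 (other probe 2.47). The cell source of the Slc40a1 signal was not tested.

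Hmox1 breaks heme into iron, biliverdin and carbon monoxide and is known for its response to oxidative stress. Its probe at chr8:77996380-77996439 had 1253 at E18.5, against 1001 at E14.5. The log2 ratio of 0.32 (1.25-fold) was about the spread between probes of a gene, and 64.1% of genes had a lower one. It is the smallest difference of the set.

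The metallothioneins Mt1 and Mt2 were both high at E18.5. Mt2, read by a probe at chr8:97062600-97062659, had an intensity of 199013 at E18.5, against 7127 at E14.5, a log2 ratio of 4.80. Mt1 had 107554 at E18.5, against 8452 at E14.5, a log2 ratio of 3.67 (12.7-fold). Mt2 thus had the larger ratio, by 1.13 on the log2 scale and by 1.13 to 1.17 over the ways of processing.

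The Mt1 ratio was alike in repeated spots and by a different probe. Over 9 of its 10 spots, intensity ran from 97651 to 112810 with a median of 109190 at E18.5, against 8006 to 8863 with a median of 8486 at E14.5. The ranges are far apart, and the log2 ratio ran from 3.61 to 3.73. These spots, too, repeat the same labelled RNA and say nothing of other lungs. The other Mt1 probe, at chr8:97069073-97069132, upstream of the first, was much dimmer, with 4903 at E18.5, against 403 at E14.5. Its log2 ratio was 3.61, close to that of the brighter probe.

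The other metallothioneins of the cluster lay within 2-fold. In RefSeq order the genes on chromosome 8 run Mt4, Mt3, Mt2, Mt1. Mt4, known from stratified squamous epithelium, had 2631 at E18.5, against 1561 at E14.5, a log2 ratio of 0.75. Mt3, known from the brain, had 619 at E18.5, against 834 at E14.5, a log2 ratio of −0.43. The log2 ratios of Mt2 and Mt3, neighbours in this order, differed by 5.23, and by at least 5.22 over the ways of processing. Nup93, a nuclear pore gene on the far side of Mt1, was at −1.88.

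**Figure D3:**
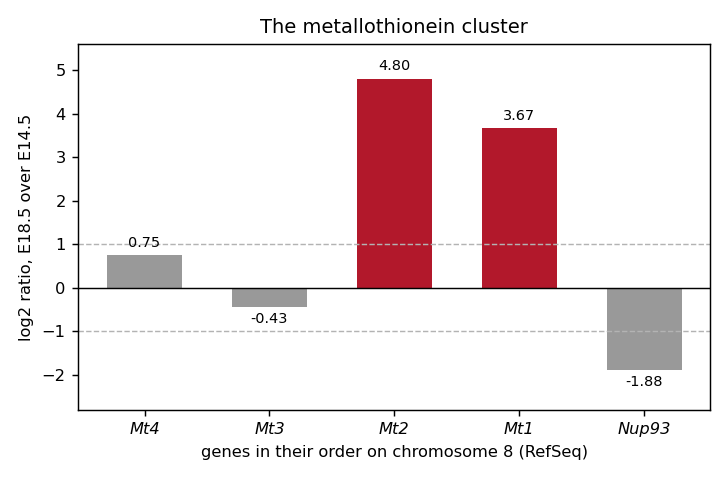
Bars give the log2 ratio, E18.5 over E14.5, of the metallothionein genes and Nup93 in their order on chromosome 8, 1 value per gene, with dashed lines at 2-fold. Mt2 (4.80) and Mt1 (3.67), in red, stand above 2-fold, and Mt4 (0.75) and Mt3 (−0.43) lie within it.

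Probes of 60 bases can cross-bind among metallothioneins. Between probes, the longest run that an Mt1 or Mt2 probe shared with the probe of another metallothionein gene was 10 bases, and binding of a probe to the other genes' transcripts was not tested. Mtf1, the factor that switches Mt1 and Mt2 on in response to metal, had 4581 at E18.5, against 2601 at E14.5, a log2 ratio of 0.82, with other probes at −0.75 and 0.43. Its probes do not settle a direction.

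Other genes of metal handling were taken from 5 lists with 77 genes. Of 13 genes for iron uptake and extracellular carriers, 6 reached 2-fold on the higher side at E18.5, 0 did on the lower side and 7 fell between, beside 17.3% and 10.1% of all genes. The list median was 0.86 (0.30 with the median over probes), and that of all genes 0.06. Lcn2, a lipocalin that binds iron-laden siderophores, had 16327 at E18.5, against 255 at E14.5 (log2 ratio 6.0). The metalloreductase Steap4 was at 3.59 (its other probe was past 2-fold too) and the ferric reductase Cybrd1 at 2.69 (others 1.37 and 1.55). Lactotransferrin (Ltf), the iron binder of secretions, was well above background at E18.5 only and at least 4.20-fold higher there (other probe 1.15). At the low end stood the lipocalin receptor Slc22a17 (−0.94, other probe −0.63), the importer Slc39a14 (−0.75, other probe −0.20) and the ferritin receptor Scara5 (−0.30, other probe 0.38), all within 2-fold.

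Of 12 measured genes among ferroxidases, ferritin partners and regulators, 2 passed 2-fold upward, 1 downward and 9 neither way. Of all genes, 17.3% passed upward and 10.1% downward. The list median was −0.15 (0.04 without loess). The protease Tmprss6, which restrains hepcidin in liver, had 1958 at E18.5, against 168 at E14.5 (log2 ratio 3.54). Hfe, the hemochromatosis protein that binds the transferrin receptor, had 5118 at E18.5, against 585 at E14.5 (3.13, other probe 1.21). The lower gene was Heph, given above beside ceruloplasmin. The iron regulatory proteins, which bind Tfrc, Slc11a2, Slc40a1 and ferritin messages, were within 2-fold, Aco1 at −0.11 (other probe −0.41) and Ireb2 at −0.45 (others −0.12 and −0.13). Fbxl5, which marks Ireb2 for degradation, was at 0.64 (others 0.51, 0.14 and 0.13). Probes of the ferritin receptor of autophagy Ncoa4 (0.25, 0.20 and −0.61) and of the iron chaperone Pcbp1 (−0.40 and 0.10) differed in sign, and those of Pcbp2 were at −0.70, −0.42 and −0.09. Hepcidin (Hamp), the hormone that removes Slc40a1 from the membrane, was well above background at E14.5 only, at 101.2, near the lowest readable signal.

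Of 17 genes for heme and mitochondrial iron, 4 passed 2-fold upward, 0 downward and 13 neither way, beside 17.3% and 10.1% of all genes. The list median was −0.12, which turned to 0.14 without loess. Haptoglobin (Hp), which captures free hemoglobin, had 228070 at E18.5, against 1690 at E14.5, a log2 ratio of 7.08 between those of Trf and Cp. Alas1, the first enzyme of heme synthesis outside the red cell, had 90524 at E18.5, against 8517 at E14.5 (3.41, other probe 3.03). The heme transporter Slc48a1 (1.12, other probe 0.23) and the biliverdin reductase Blvrb (1.03) were just past 2-fold. Toward the low end stood the biliverdin reductase Blvra (−0.59) and the transporter Abcg2 (−0.58, other probe −0.78), both within 2-fold. Hemopexin (Hpx), the plasma carrier of heme, was at −0.32, unlike the plasma carriers Trf, Cp and Hp.

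**Figure D4:**
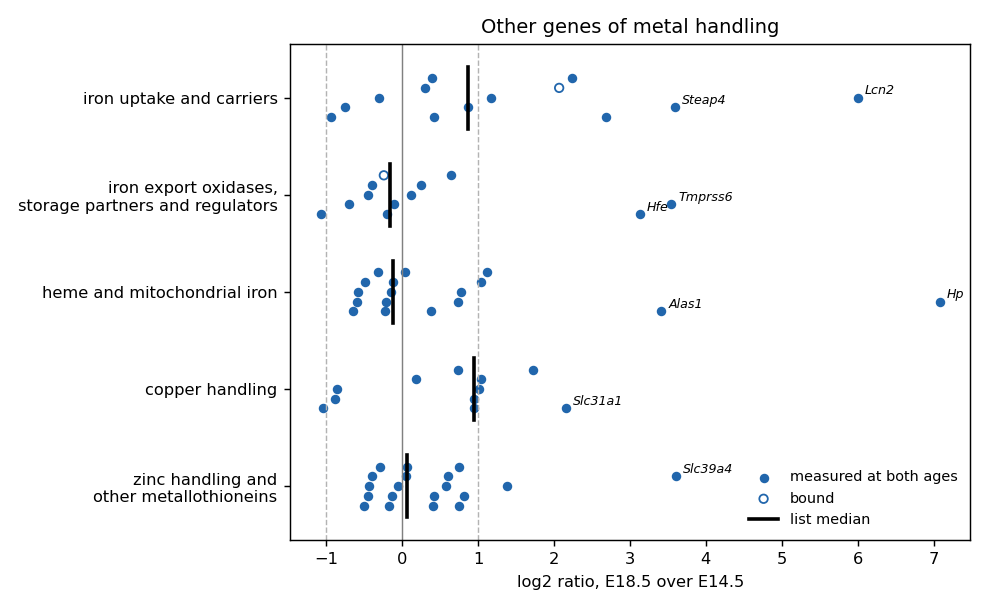
Each point is the log2 ratio, E18.5 over E14.5, of 1 gene in 5 lists of metal handling, open circles are bounds, black bars are list medians and dashed lines mark 2-fold. Most genes lie within 2-fold, and Hp (7.08), Lcn2 (6.0), Slc39a4 (3.60) and Steap4 (3.59) stand far to the right.

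Of 11 measured copper genes, 4 passed 2-fold upward, 1 downward and 6 neither way, beside 17.3% and 10.1% of all genes. The list median was 0.94. With the scanner software's ratio 2 passed upward and 3 downward. The copper importer Slc31a1 had 26085 at E18.5, against 5832 at E14.5 (log2 ratio 2.16, other probe 1.99). Lox, a copper enzyme of the matrix, was at 1.73. The low-affinity transporter Slc31a2 (1.02, other probe 0.58) and the copper pump Atp7b (1.04), which loads ceruloplasmin in liver, were just past 2-fold, and Atp7a was at 0.94 (other probe 0.25). The chaperone Atox1, which hands copper to those pumps, was lower, with 18454 at E18.5, against 37919 at E14.5 (−1.04). Cox17 (−0.88, other probe 0.00) and Commd1 (−0.86, others −0.93 and −0.86) lay just within 2-fold on the low side.

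Of 19 measured genes for zinc and the other metallothioneins, 2 passed 2-fold upward, 0 downward and 17 neither way. The shares of all genes were 17.3% upward and 10.1% downward. The list median was 0.06 (−0.14 with the scanner software's ratio). The zinc importer Slc39a4 had 59565 at E18.5, against 4906 at E14.5 (log2 ratio 3.60). The zinc exporter Slc30a1, which like the metallothioneins is a known target of MTF1, had 3869 at E18.5, against 1482 at E14.5 (1.38, other probe 1.23). The lowest were Slc30a6 (−0.50), Slc39a6 (−0.45) and Mt3.

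The genes nearest to members in the ranking were taken from those measured at both ages, by distance in log2 ratio over this 1 pair of samples. Above Trf stood Sec14l3, Pon1 and Scgb1a1, within 0.32, and below it Tmem212, Calca and Cyp2f2, within 0.11. Around Cp stood Sntn, Fam216b and Hp above, within 0.33, and Retnla, the complement protein C3 and Ccdc153 below, within 0.27. Next to Mt2 were Zbbx, Dnah2 and 1110017D15Rik above and Cfap57, Dnah5 and Slc4a5 below, all within 0.03. Next to Mt1 were Susd2, Esyt3 and Ttll6 above and Adcyap1r1, Ecrg4 and Wdr78 below, all within 0.02. A shared ratio over 1 pair of samples says nothing of shared control.

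**Figure D5:**
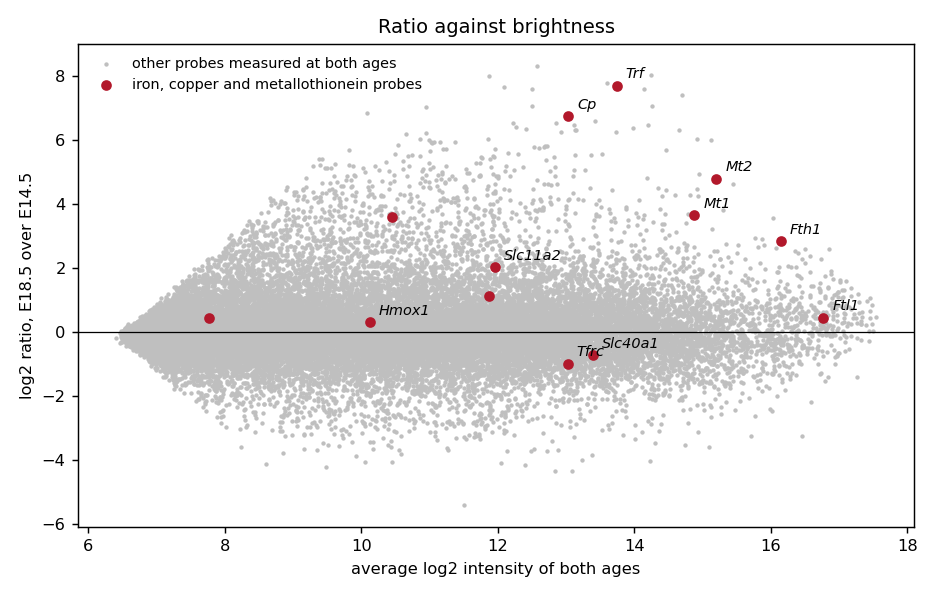
Log2 ratio, E18.5 over E14.5, against the average log2 intensity of both ages for every probe well above background at both ages (grey), with the 13 probes of the set in red and the brightest of each gene named. Trf (7.71) and Cp (6.75) lie near the upper edge of the cloud, and Tfrc (−0.98) and Slc40a1 (−0.72) inside its lower part.

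Many marker genes moved in the same material, and their part in the ratios above was not tested. In such dissected tissue, a change in the share of a cell type and a change in RNA per cell cannot be told apart. The counts below stand beside 17.3% upward and 10.1% downward for the 17243 named genes with a ratio. In lists this short, counts near those percentages are description only. By 2-fold or more, 5 of 6 secretory airway genes stood higher at E18.5 (median 7.51), as did 6 of 6 genes of multiciliated cells (4.13) and 6 of 6 of alveolar type II cells (3.29). Their summed intensities were 1173616, 184264 and 264734 at E18.5, against 6992, 17387 and 42041 at E14.5. The 6 genes of epithelium were all well above background at both ages, with summed intensities of 441443 at E18.5, against 253017 at E14.5; 3 were at least 2-fold higher, and 3 lay within 2-fold, among them Epcam (−0.75) and Nkx2-1 (−0.57). Of 7 endothelial genes, Kdr (4.13) and Vwf (3.08) were higher, while 5 lay within 2-fold and the list median was 0.64. The summed intensities were 87995 at E18.5, most of it from Kdr and Vwf, against 11000.4 at E14.5. Of 8 genes of mesenchyme and smooth muscle, 3 were lower, the muscle genes Acta2 (−1.52), Myh11 (−2.43) and Des (−1.275). The other 5, among them the collagens, lay between −0.24 and 0.69. The summed intensities of the list were 392954 at E18.5, against 451156 at E14.5. Of 10 measured erythroid genes, 2 were higher and 4 lower, with summed intensities of 302114 at E18.5, against 89626 at E14.5. Most of the E18.5 sum was the globin Hbb-bt, at 291830, against 48003 at E14.5. Its log2 ratio was 2.60 (other probes 2.28, 2.28 and 2.04), and that of Alas2 was 1.78. Among the lower genes, the embryonic globin Hbb-y read 1617 at E18.5, against 32911 at E14.5.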

How the data were processed

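Per the labels' protocols, total RNA was amplified in 1 round and labelled with Cy5 (red) for E18.5 and Cy3 (green) for E14.5. The authors deposited the scanner table of the array, made with Agilent Feature Extraction 9.5.3.1 per the submitters' processing notes, once for each sample, and the copies were identical in 115 of 115 columns. It holds spot and local background intensities and, per the file headers, the software's background-subtracted and dye-normalized intensities with their log10 ratio (red over green), and mm8 coordinates. The deposited flags mark outlier, saturated and well-above-background spots. The authors' value table holds linear intensities that were 0.339 times the scanner software's processed intensity, floored at 15, with no centring (medians 130.2 at E18.5 and 129 at E14.5). Its ratios above the floor therefore equal the scanner software's ratio and it was not used further.

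Mean intensities were corrected with normexp (offset 50) and then loess-normalized (limma 3.58.1, R 4.3.3; span 0.3, 4 iterations), leaving out 160 outlier spots of 43379 and the control spots. The steps were tested on simulated data with known ratios. Loess moves most genes towards 0 at each brightness, so it hides a shift shared by most genes. "Normalized intensity" is each channel after these steps. Repeated spots were averaged. RefSeq (GRCm38.p6, used for names, gene order and promoters) named 33096 of 41170 probes, and 8074 stayed unnamed. A gene was read by its brightest probe well above background at 1 age at least. Where 1 age only was well above background, the ratio is a bound. It was taken against the other age's own reading or that age's lowest readable signal, whichever was higher. The 71 genes whose bound was under 1-fold were left out. Plots and tables were made with Python 3.11.15, numpy 2.4.6, pandas 2.3.3 and matplotlib 3.10.9.

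The groups come from the sample titles. No test was possible with 1 sample per age, so calls are by size, at 2-fold. Members and lists were chosen with earlier results of these data known. In each list the 3 largest, the 3 smallest and genes past 2-fold could be named; Aco1, Ncoa4, Pcbp1, Atp7a, Mt4, Hpx and the chromosome neighbours were named after their values were seen. Members were matched to promoters by symbol, and 6 of 10 matched. The value of 1 listed gene is not reported here. Exon annotation of mm8 was not used here.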

Additional observations from a re-analysis of the deposited data

How the results depend on the processing

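The 10 genes were recomputed with the scanner software's ratio, normexp without offset, median centring in place of loess, no background correction, and the median over probes. Of 50 such log2 ratios, 47 moved by less than the spread between probes of a gene (0.33), and 0 changed sign. Without loess, Fth1 came to 3.27 and Ftl1 to 0.96; all genes then had a median of 0.13. With the median over probes, Slc11a2 came to 1.13. The number lower by 2-fold, 0, became 1 (Tfrc) with the scanner software's ratio and 2 (Tfrc and Slc40a1) at a threshold of 1.5-fold. The number higher by 2-fold was 6 under every setting tried. Over all genes, the scanner software's ratio put 2686 on the lower side of 2-fold, against 1738. With the median over probes, the medians of the 5 metal lists became 0.30 for iron uptake and carriers and 0.40 for zinc; their other medians moved by less than 0.33, though without loess those of oxidases and regulators (0.04) and heme (0.14), and with the scanner software's ratio that of zinc (−0.14), changed sign. Marker medians moved further: airway secretory to 6.74 (median over probes), epithelium to 1.34 (no loess), macrophage to 2.10 and erythroid to −0.70 (scanner software). The scanner software's ratio called 2 higher and 3 lower copper genes (4 and 1 before), 2 higher heme and mitochondrial genes (4 before), 2 lower iron uptake genes (0 before) and 2 lower genes among oxidases and regulators (1 before). Without offset 1 iron uptake gene was called lower, without loess 5 copper genes higher and 0 lower, and with the median over probes 0 oxidases and regulators lower, and 5 iron uptake, 3 heme and 3 copper genes higher; the cause was not tested. No paired analysis was possible because each age has 1 sample. Dim probes, such as the upstream Slc11a2 probe, limit what the array can show, since the offset pulls their ratios towards 0.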

Other observations

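The ratios of genes next to members on the chromosome are given as description only. Trf was picked for its large ratio, so smaller ratios beside it follow from that choice. In RefSeq order, the gene on 1 side of Trf, Srprb, a subunit of the receptor for signal recognition particle, was at −0.18, and Rab6b beyond it at 1.82. On the other side 1300017J02Rik, which encodes a transferrin-related inhibitor of carbonic anhydrase in mouse, was at 2.36, and Topbp1, a replication and checkpoint factor, at −2.05. On 1 side of Cp, Hps3 was at 0.70 and Hltf beyond it at 0.86. On its other side Crh had no ratio, and Trim55 beyond that was at 0.33. Fth1 lay between Incenp, a mitotic gene (−2.56), and Best1, a chloride channel (2.47), and Ftl1 between Gys1, glycogen synthase (1.02), and Bax, a cell death effector (−0.85). Hmox1, at 0.32, lay between Tom1 (0.40) and Mcm5, a subunit of the replicative helicase (−2.23). Slc40a1 lay between Wdr75 (−1.46) and Dnah7b (0.09), and Tfrc between Zdhhc19 (above background at E18.5 only) and Tnk2 (−0.65).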
